A study of Mus musculus with 3 samples.

Results

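The ATAC complex (Ada-Two-A-containing) is a histone acetyltransferase complex, and its subunit genes were examined in KO-actin cells. The members were the 10 count rows whose Ensembl gene carries the mouse symbol Kat2a, Kat2b, Kat14, Tada2a, Tada3, Mbip, Yeats2, Zzz3, Sgf29 or Dr1, out of 46603 gene rows, and all 10 were matched. KO-actin cells descend from mouse embryonic fibroblasts (MEFs) with a β-actin knockout, into which β-actin bearing a nuclear localization signal (NLS) was put back, and their labelled genotype is Beta-actin KO-NLS. RNA-Seq of polyadenylated RNA was available for 3 libraries, replicates 1 to 3, all of this genotype. The study raised the acetyltransferases PCAF, encoded by Kat2b, and hATAC with its KAT14 subunit as possible routes from β-actin to H3K27 acetylation. It cited reports that actin associates with both, and that actin bound to KAT14 inhibits the acetyltransferase activity. It also raised histone deacetylase activity as another potential route. The levels of the ATAC transcripts in KO-actin cells bear on which subunit genes the cells express. They do not measure actin binding or enzyme activity. Wild-type and KO libraries were not analysed here, so no value below is a change caused by the knockout or by NLS-tagged β-actin. The labels do not say whether the libraries came from separate cultures, so the spread between them may be technical.

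ATAC places an acetyl group on the tails of histones H3 and H4. Its main catalytic subunit is either GCN5, encoded by Kat2a, or the paralog PCAF, encoded by Kat2b, and the pair is mutually exclusive within a complex. The adaptors TADA3 and SGF29 sit beside the enzyme and are shared with SAGA, a coactivator complex that uses the same enzymes but carries TADA2B in place of TADA2A. KAT14, YEATS2, ZZZ3, MBIP and DR1 belong to ATAC and not to SAGA, although DR1 also pairs with DRAP1 in the TBP inhibitor NC2.

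Library totals were 49932446, 49587453 and 44383636 counts in replicates 1, 2 and 3. Levels are given as CPM, counts relative to a common library size after TMM scaling, and, wherever genes were compared with each other, as CPM per kilobase of annotated exon. The fibroblast label was checked against markers: 5 of 6 fibroblast genes had at least 1 CPM in every library, with Vim at 4563 ± 238 CPM (SD, n = 3) and Thy1, the exception, at 0.836 ± 0.254 CPM (SD, n = 3). At least 1 CPM in every library was reached by 2 of 5 epithelial genes, the keratins Krt18 at 37.9 and Krt19 at 44.1 CPM, by 1 of 4 blood genes, Cd74 at 11.3 CPM, and by 1 of 3 endothelial genes, Kdr at 2.09 CPM. The other 8 genes of these lists, among them Epcam, Cdh1, Ptprc, Pecam1 and Cdh5, had mean levels of at most 0.232 CPM, the value of Spi1. Replicate 2 stood apart from the others: chi-square over degrees of freedom was 11.2 against replicate 1 and 10.8 against replicate 3, compared with 3.78 between replicates 1 and 3. Results that rest on replicate 2 are therefore given with and without it.

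The 120 bases just before the annotated start of 4 members are shown, because these genes carry the main contrasts below: the acetyltransferase genes Kat2a, Kat2b and Kat14, and Mbip, which had the lowest level of the 10. They are RefSeq sequences of build GRCm38.p6, read 5′ to 3′ on the strand of the gene, with CpG dinucleotides in capitals. The positions are chr11:100712468-100712587 on the minus strand for Kat2a, chr17:53566741-53566860 on the plus strand for Kat2b, chr2:144368863-144368982 on the plus strand for Kat14 and chr12:56345895-56346014 on the minus strand for Mbip. None of the 4 stretches overlaps an annotated exon. The annotated start is the gene start in GENCODE M21, and the Kat2a stretch ends 2 bases before it. For Kat2b and Kat14 the RefSeq start lies further downstream, so the 4 stretches do not sit at like distances from the RefSeq starts.
Kat2a: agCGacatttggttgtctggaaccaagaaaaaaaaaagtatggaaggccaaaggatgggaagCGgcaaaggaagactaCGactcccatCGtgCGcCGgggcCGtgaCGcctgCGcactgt
Kat2b: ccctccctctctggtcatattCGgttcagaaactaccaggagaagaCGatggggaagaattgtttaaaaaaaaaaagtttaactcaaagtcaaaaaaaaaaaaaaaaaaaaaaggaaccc
Kat14: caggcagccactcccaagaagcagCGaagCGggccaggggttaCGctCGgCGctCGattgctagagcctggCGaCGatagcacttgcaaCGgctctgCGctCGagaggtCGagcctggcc
Mbip: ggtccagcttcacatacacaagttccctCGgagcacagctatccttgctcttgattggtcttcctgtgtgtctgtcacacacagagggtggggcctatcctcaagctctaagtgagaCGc
Kat2a held 9 CpG in this stretch and Kat14 held 12, against 2 each for Kat2b and Mbip. The GC content of the same stretches was 54.2% for Kat2a, 65.8% for Kat14, 34.2% for Kat2b and 53.3% for Mbip.

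Over the 250 bases before each RefSeq start, the 10 members had 13 windows, since Kat2b and Zzz3 have more than 1 start. The ratio of observed to expected CpG ranged from 0.217 for Mbip to 1.04 for Tada2a, with a median of 0.808 over the 13 windows. The median was 0.724 over 12685 windows of expressed genes (10 counts or more in each library) and 0.374 over all 32851 windows. Of the 13 windows, 8 lay above the median of those expressed genes, so the members resembled other expressed genes in this respect. The TATA motif TATAAA occurred on neither strand in any of the 13 windows, against 12.4% of all windows and 6.30% of those of the expressed genes. CCAAT, searched on both strands, was found in 2 windows, those of Mbip and of 1 start of Kat2b, against 33.8% of all windows and 35.5% of those of the expressed genes. A match of letters is a description of the window and not evidence that a factor binds there.

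All 10 ATAC genes were transcribed in KO-actin cells. Each had at least 1 CPM in every library, a level reached by 51.5% of 21624 protein-coding genes. The lowest single count was 351, for Mbip in replicate 3, and the highest 6811, for Kat2a in replicate 2, so none of the values lay near the limit that a count of 0 allows, 0.0671 CPM in the smallest library. The median of the 10 mean levels was 56.5 CPM, beside 27.5 CPM for the 13814 genes that had 10 counts or more in each library. Per kilobase of exon the median was 10.8, beside 5.88 over the same genes with an annotated length, and only Yeats2 and Mbip lay below that value.

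Kat2a had the highest level of the 10 members and exceeded Kat2b, its alternative, in each library. Kat2a is a minus-strand gene on chromosome 11 (GRCm38, 100704746 to 100712465) and reached 134, 138 and 131 CPM in replicates 1, 2 and 3. Kat2b, on chromosome 17 from 53566861 to 53672720 on the plus strand, had 54.5, 54.7 and 52.6 CPM in turn. The libraries were close for both genes, and the lowest Kat2a value stood far above the highest Kat2b value. Per kilobase of exon, Kat2a had a level of 38.6 ± 1.02 CPM (SD, n = 3) and Kat2b of 11.1 ± 0.235 CPM (SD, n = 3).
The ratio of Kat2a to Kat2b per kilobase was 3.43, 3.54 and 3.49 in replicates 1 to 3, a mean of 3.49 ± 0.0507 (SD, n = 3). Kat2a was higher in 3 of 3 libraries, and the difference was far larger than the spread between them. The two-sided p of an exact sign-flip permutation test was 0.25, and 3 libraries cannot give a smaller one. Without the length correction the ratio was 2.49 ± 0.0363 (SD, n = 3). Kat2a made up 77.7% ± 0.252 (SD, n = 3) of the summed level per kilobase of the pair.

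Reads of the 2 genes could be told apart by sequence. Of the 50-base windows of the longest Kat2a transcript, 0% occurred in a transcript of any other gene. For Kat2b the share was 7.75% for 50-base windows and 2.02% for those of 100 bases, all of them in the pseudogene Kat2b-ps, which itself had 2, 3 and 5 counts. Neither gene had exons overlapped by those of another gene in the count files.

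Kat14, which encodes the subunit named for its own acetyltransferase domain, had a level between those of Kat2a and Kat2b. It lies on chromosome 2 from 144368983 to 144407676 on the plus strand and had 59.6, 58.8 and 59.1 CPM in replicates 1, 2 and 3. Its coefficient of variation (SD over mean) was 0.661%, within the 1.88% that counting error alone would give, so no variation between libraries was detectable. Per kilobase its level was 12.6 ± 0.0832 CPM (SD, n = 3). Kat2a exceeded it by 3.07 ± 0.0941 times (SD, n = 3), and Kat2b stood at 0.880 ± 0.0196 of it (SD, n = 3), lower in 3 of 3 libraries.
Part of Kat14 could not be counted cleanly. Pet117, a gene for an assembly factor of cytochrome oxidase, shares 693 bases of exon with Kat14 on the same strand, 14.7% of the exonic length of Kat14. Pet117 was listed at 0 counts in all 3 libraries. With only the exonic bases free of other genes as the length, the Kat14 level was 14.8 CPM per kilobase, which put it above Tada2a. How reads in the shared bases were assigned is not given in the sources used here, and the effect on Kat14 was not tested.

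**Figure D1:**
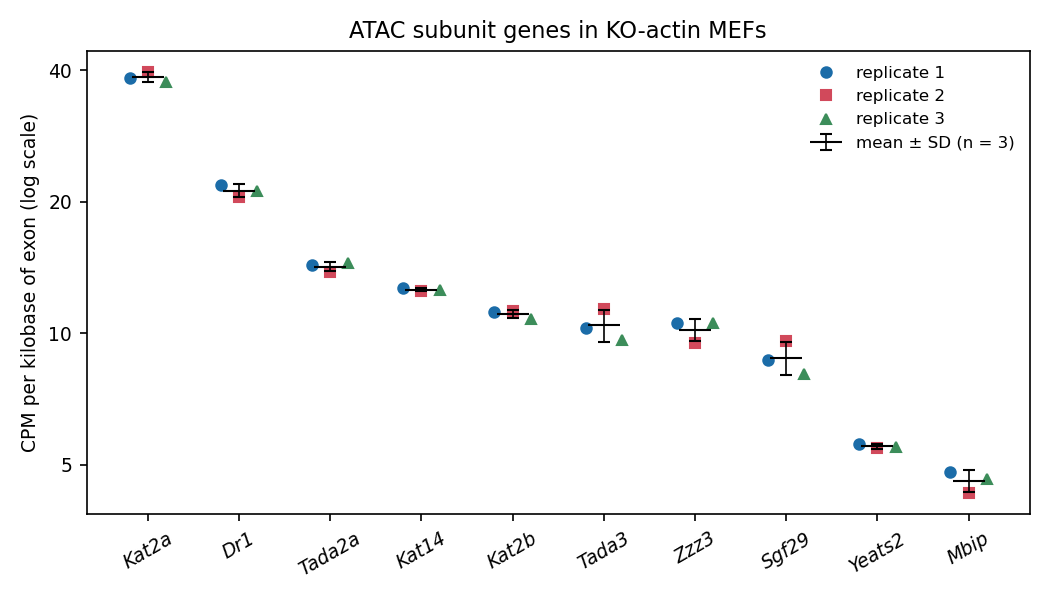
Level of each ATAC gene in CPM per kilobase of exon on a log axis, by library (circles, squares and triangles for replicates 1, 2 and 3), with the mean and SD of the 3 libraries as a black dash and bar. Kat2a at 38.6 and Dr1 at 21.2 stand above the rest, 6 genes lie between 8.80 and 14.2, and Yeats2 and Mbip are the lowest at 5.51 and 4.59.

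Of the adaptor genes of the acetyltransferase module, Tada2a was highest and Sgf29 lowest per kilobase. Tada2a, whose product gives the complex its name, lies on chromosome 11 from 84078920 to 84129600 on the minus strand and had 42.6, 41.2 and 43.1 CPM in replicates 1 to 3. Tada3, on chromosome 6 from 113366025 to 113377883 on the minus strand, had 40.0, 44.2 and 37.5 CPM. Sgf29, which encodes a reader of methylated histone H3 and lies on chromosome 7 from 126649309 to 126672925 on the plus strand, had 15.6, 17.3 and 14.6 CPM. Tada3 and Sgf29 were both highest in replicate 2 and lowest in replicate 3, while Tada2a was lowest in replicate 2.
Per kilobase, the levels were 14.2 ± 0.328 CPM for Tada2a, 10.4 ± 0.882 for Tada3 and 8.80 ± 0.772 for Sgf29 (SD, n = 3 for each). The summed level of Kat2a and Kat2b per kilobase, 49.7 ± 1.22 CPM (SD, n = 3), was 4.78 ± 0.281 times that of Tada3 and 5.67 ± 0.353 times that of Sgf29 (SD, n = 3 for each). Transcript levels do not give the amounts of the proteins. Sgf29 is partly overlapped by opposite-strand genes over 12.8% of its exonic length, among them 2510046G10Rik with 20, 33 and 38 counts, and whether the counting used strand is not given in the sources used here.

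The remaining ATAC subunits spanned the range from the next to highest member to the lowest. Dr1, the histone-fold protein also known as NC2 beta, lies on chromosome 5 from 108268897 to 108280526 on the plus strand and had 76.2, 71.2 and 73.8 CPM in replicates 1 to 3. Zzz3, which encodes a zinc-finger reader of the histone H3 tail and lies on chromosome 3 from 152395473 to 152462826 on the plus strand, had 121, 109 and 121 CPM. Both were lowest in replicate 2. Yeats2, which encodes a reader of acetylated H3 and lies on chromosome 16 from 20141063 to 20232573 on the plus strand, had 64.7, 63.1 and 63.6 CPM. Mbip, named for its binding to the kinase MAP3K12 and located on chromosome 12 from 56328303 to 56345894 on the minus strand, had 8.13, 7.26 and 7.86 CPM. The Mbip values lay below every value of Sgf29, the next lowest member in CPM.
Per kilobase, Dr1 had a level of 21.2 ± 0.721 CPM, Zzz3 of 10.2 ± 0.590, Yeats2 of 5.51 ± 0.0691 and Mbip of 4.59 ± 0.263 (SD, n = 3 for each). Zzz3 and Yeats2 are long genes, with 11499 and 11585 annotated exonic bases, and fell from ranks 2 and 4 by CPM to ranks 7 and 9 per kilobase. The longest annotated transcripts are shorter, at 7607 and 6112 bases, and with these lengths the levels were 15.4 CPM per kilobase for Zzz3 and 10.4 for Yeats2.

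In order of the level per kilobase the genes were Kat2a, Dr1, Tada2a, Kat14, Kat2b, Tada3, Zzz3, Sgf29, Yeats2 and Mbip. The ratio of the highest to the lowest was 8.45 ± 0.689 (SD, n = 3). Without replicate 2 this ratio was 8.05 ± 0.0824 (SD over replicates 1 and 3), so most of its spread came from replicate 2. Tada3 exceeded Zzz3 in replicate 2 alone, and Zzz3 ranked above Tada3 without that library. Of the 9 neighbouring pairs in this order, 6 had values that did not overlap between the libraries. The values of Kat2b and Tada3, of Tada3 and Zzz3, and of Zzz3 and Sgf29 overlapped, so that the order from Kat2b to Sgf29 was not resolved. Exact sign-flip permutation tests, two-sided, gave p = 0.25 for each of the 6 pairs and an adjusted p of 0.375 after Benjamini-Hochberg adjustment over the 9 pairs, and 3 libraries allow no smaller raw p. The order also moved with the length used. With the longest transcript Zzz3 took rank 5 and Kat2b rank 8, while Kat2a, Dr1, Tada2a, Kat14, Tada3, Yeats2 and Mbip kept their ranks. With only exonic bases free of other genes, Kat14 took rank 3 and Tada2a rank 4. In CPM without length Kat14 was again above Tada2a, at ranks 5 and 7. Which of Tada2a and Kat14 is higher was therefore also not resolved. Kat2a carried 28.1% ± 0.545 of the summed level per kilobase of the 10 genes, Dr1 15.5% ± 0.541 and Mbip 3.34% ± 0.199 (SD, n = 3 for each).

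Some members have a counterpart outside the list. Tada2b, the SAGA adaptor that takes the place of Tada2a, had a level of 13.3 ± 0.314 CPM per kilobase (SD, n = 3). The ratio of Tada2a to Tada2b per kilobase was 1.10, 1.03 and 1.07 in replicates 1 to 3, a mean of 1.07 ± 0.0373 (SD, n = 3), with an exact sign-flip permutation p of 0.25, two-sided. The direction of this small difference was set by the length used: the ratio was 0.836 ± 0.0293 (SD, n = 3) in CPM without a length, 0.950 with only exonic bases free of other genes and 1.47 with the longest transcripts. Which of the adaptors is higher was therefore not resolved, and the levels were of the same order under each length.
Drap1, which encodes the partner of DR1 in NC2, had 177 ± 16.0 CPM per kilobase (SD, n = 3), above all 10 members. The ratio of Dr1 to Drap1 per kilobase was 0.134, 0.105 and 0.123 in replicates 1 to 3, a mean of 0.121 ± 0.0145 (SD, n = 3), with Dr1 lower in 3 of 3 libraries and an exact sign-flip permutation p of 0.25, two-sided. With the longest transcripts the ratio was 0.0775 and without a length 0.241, so the direction held while its size depended on the length.
Wdr5 and Pole3, which have also been found in ATAC but work in other complexes too, had 24.8 ± 0.248 and 54.5 ± 0.999 CPM per kilobase (SD, n = 3). Map3k12, the kinase that MBIP was named for, had 6.10 ± 0.150 CPM per kilobase (SD, n = 3), beside 4.59 for Mbip.

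**Figure D2:**
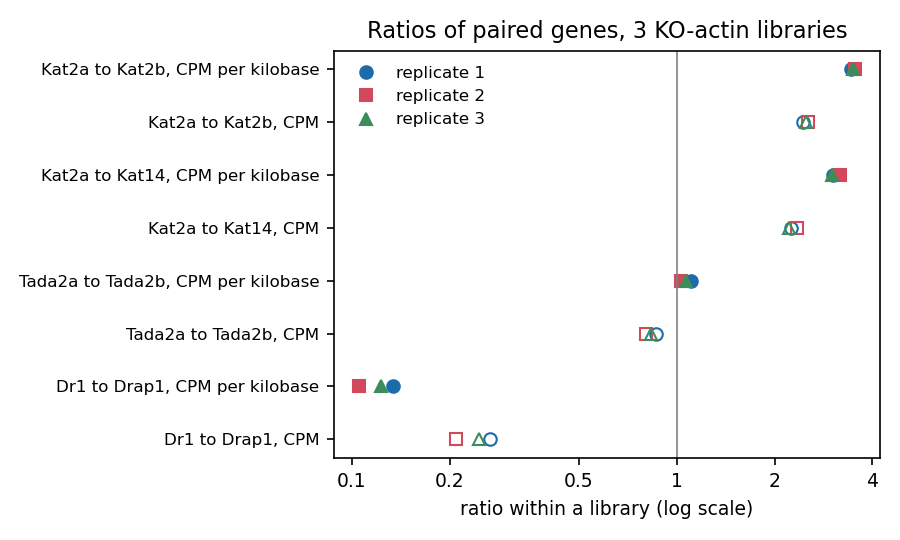
Ratio of the gene named first to the gene named next within each library, on a log axis, in CPM per kilobase (filled) and in CPM (open), with circles, squares and triangles for replicates 1, 2 and 3. Kat2a exceeds Kat2b and Kat14 in each library on both scales, Tada2a and Tada2b lie on either side of a ratio of 1 depending on the scale, and Dr1 is below Drap1 throughout.

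The ATAC genes were set beside SAGA subunits and other acetyltransferases. The 6 members not in SAGA had a median of 11.4 CPM per kilobase and the 4 shared with SAGA one of 10.8. The 15 SAGA subunits outside ATAC had a median of 12.8, from 0.0911 for Taf9 to 24.1 for Taf6l, and 14 of 15 had at least 1 CPM in every library. Taf9 had 13, 8 and 7 counts, and 73.8% of its exonic length is shared with Ak6 on the same strand, which bears on what could be counted for it. These levels use the full exonic length. Opposite-strand genes overlap 45.9% of that length in Taf10 and 34.9% in Tada1. Exonic bases free of other genes number 2478 in Taf10 and 5017 in Taf6l. With these lengths Taf10 would exceed Taf6l, by less than the spread between the libraries. Tada1, at 2.41 CPM per kilobase, would stay far below both.
Among 8 other acetyltransferase genes the median was 14.4 CPM per kilobase and all 8 had at least 1 CPM in every library. Hat1, a type B enzyme that acts on newly made histones, was highest at 54.6 ± 3.07 CPM per kilobase (SD, n = 3), and Kat6b was lowest at 1.05 ± 0.0105 (SD, n = 3). Per kilobase, Kat2a stood above Ep300, at 15.7 ± 0.184 CPM (SD, n = 3), and above Crebbp, at 3.64 ± 0.133 CPM (SD, n = 3), while the CPM of Ep300, 223, exceeded that of Kat2a. Yeats2 was the next to lowest of 4 genes with a YEATS domain, which ranged from Mllt3 at 4.40 to Mllt1 at 36.6 CPM per kilobase. These medians describe the lists and were not tested against each other.

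**Figure D3:**
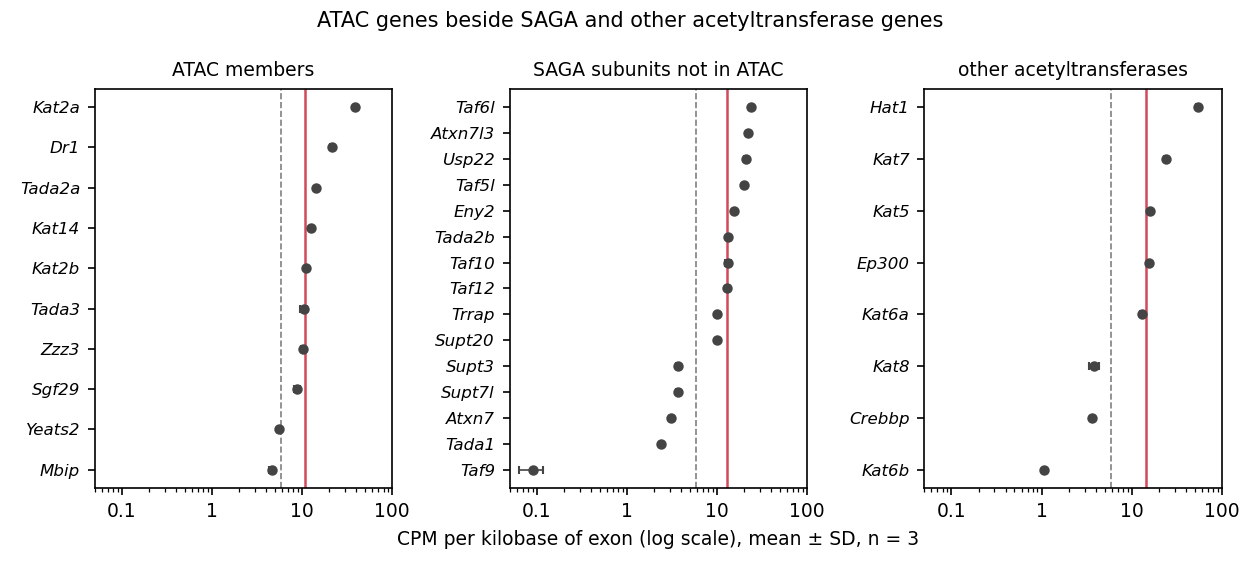
Mean level of each gene in CPM per kilobase of exon on a log axis, with SD bars over 3 libraries, for the 10 ATAC genes, 15 SAGA subunits outside ATAC and 8 other acetyltransferases. The red line is the median of each list (10.8, 12.8 and 14.4) and the dashed line the median of all genes that had 10 counts or more in each library (5.88).

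Levels of 5 of the 10 members differed between the libraries by more than counting error. Counts of each of 13814 genes were tested by chi-square for departure from the scaled library sizes, and at a Benjamini-Hochberg adjusted p under 0.05 the test called Kat2a, Tada3, Sgf29, Zzz3 and Dr1, beside 43.9% of all genes tested. The count of members was thus close to the background and is not a result about the complex. The changes were small. The highest library exceeded the lowest by 1.19-fold for Sgf29, 1.18-fold for Tada3, 1.11-fold for Zzz3, 1.07-fold for Dr1 and 1.05-fold for Kat2a. The other 5 members ranged from 1.01-fold for Kat14 to 1.12-fold for Mbip, whose lower counts make the test less sensitive.
Of the 5 genes called, Kat2a, Tada3 and Sgf29 were highest in replicate 2, and Zzz3 and Dr1 were lowest there. Among all 13814 genes tested, 6063 were called. Of these, 2811 were highest in replicate 2 and 2403 lowest there, or 20.3% and 17.4% of all genes tested. The called members higher in replicate 2 are genes shared with SAGA, and those lower are not in SAGA. The same genes also differed in GC content, at 57.4% for Kat2a, 56.1% for Tada3 and 54.8% for Sgf29 against 43.9% for Zzz3 and 40.9% for Dr1. The log2 deviation of replicate 2 from the mean of the others was 0.19 for Tada3, 0.20 for Sgf29, 0.06 for Kat2a, -0.15 for Zzz3 and -0.08 for Dr1. Genes within 1 percentage point of GC of these had median deviations of 0.09, 0.07, 0.10, -0.07 and -0.12 in turn. Tada3, Sgf29 and Zzz3 thus deviated further than the median of genes of like GC content, and Kat2a and Dr1 less far. In bins of GC content, Tada3 and Sgf29 lay above the upper quartiles of all genes tested, 0.16 and 0.14 in turn. Zzz3, near the lower quartile, and Kat2a and Dr1 lay within the quartiles of their bins. Across the 10 members the Spearman correlation of this deviation with GC content was 0.83, and across 13770 genes it was 0.49, as a description only, since all points come from the same libraries.
Without replicate 2, 0 of the 10 members were called by the chi-square test and 0 had an unadjusted p under 0.05, beside 12.5% of 14037 genes called. Kat2a was also not called when total counts replaced TMM sizes. The call of all 5 members thus needed replicate 2. Dr1 was also not called without replicate 1, and Kat2a and Sgf29 were not called without replicate 3. The part of GC content in these calls was not tested.

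**Figure D4:**
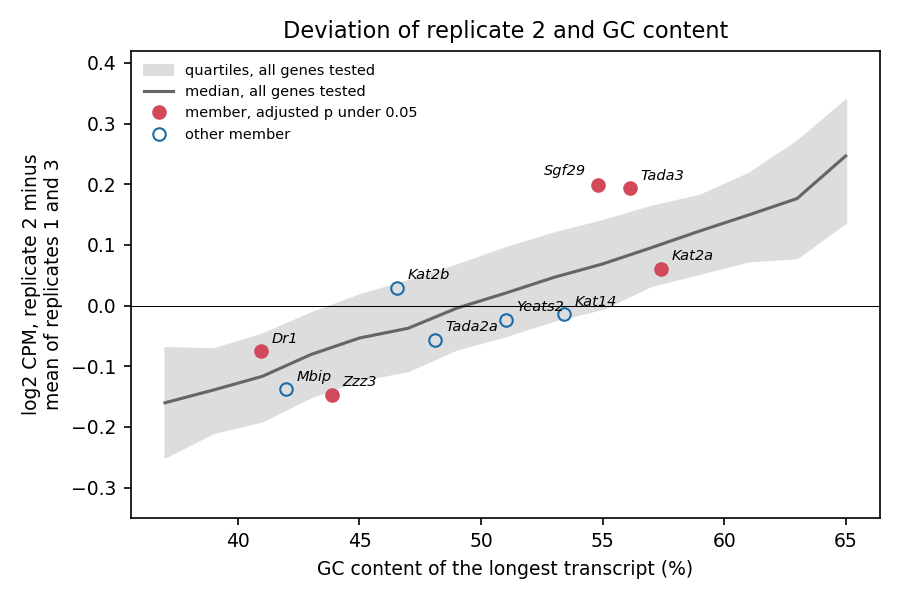
Log2 CPM of replicate 2 minus the mean of replicates 1 and 3, against the GC content of the longest transcript in percent, for the 10 members (filled where the adjusted p was under 0.05, open otherwise), with the median (line) and quartiles (band) of all genes tested in bins of GC content. Dr1 at -0.08 and Zzz3 at -0.15 lie on the GC-poor side and Kat2a at 0.06, Tada3 at 0.19 and Sgf29 at 0.20 on the GC-rich side, with Tada3 and Sgf29 above the band of all genes.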

How the data were processed

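The authors deposited raw read counts per Ensembl gene for 3 libraries, without normalization. The submitters' processing notes name Trimmomatic, FastQC, HISAT2 and HTSeq and the builds mm10 and GRCm38. The annotation release, the strand setting and the treatment of reads on several genes are not given in the sources used here. Symbols, exonic lengths (union of annotated exons) and positions came from GENCODE M21 on GRCm38 for 46091 of 46603 rows, and the rows without a gene model held 0.0544% of the counts. Promoter sequences came from RefSeq (GRCm38.p6), with all 10 members matched.

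Counts were scaled by TMM (edgeR 4.0.16, R 4.3.3). DESeq2 1.42.0 size factors and total counts were alternatives, as were other lengths, other count minimums (1 and 100 in place of 10) and leaving out each replicate. Pairs of genes were compared within libraries by an exact sign-flip permutation test. A chi-square (2 degrees of freedom) was used for variation between libraries, adjusted by Benjamini-Hochberg. Counts were also simulated for 13814 genes with counting error only and 200 genes changed in replicate 2. The test then called 128 at 1.2-fold and 162 at 1.5-fold, with 5 and 6 calls among unchanged genes. The libraries themselves varied beyond counting error, with 43.9% of genes called, so these rates do not carry over to them. The limit that a count of 0 allows was set at 3 counts and covers counting error only. Python 3.11.15, numpy 2.4.6, pandas 2.3.3, scipy 1.17.1 and matplotlib 3.10.9 were used.

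The 10 members and the gene lists were chosen with earlier results of these data known. All members were named, with genes outside the list named where they are a counterpart of a member, the extremes of a list, a cell type marker, or where a member's level was set beside them (Ep300 and Crebbp, and the overlapping genes Pet117, 2510046G10Rik, Ak6 and Kat2b-ps, chosen after their values were seen). Genes with a like pattern were not searched for in 3 libraries of 1 condition.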

Additional observations from a re-analysis of the deposited data

How the results depend on the processing

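No paired analysis was possible because all 3 libraries belong to the same group. The ratio of Kat2a to Kat2b was 3.49 per kilobase of exon, 3.55 with the longest transcript and 2.49 in CPM without length. The ratio of Tada2a to Tada2b, 1.07, turned to 0.950 with exonic length not overlapped by other genes and to 0.836 without length, and rose to 1.47 with the longest transcript. The ratio of Dr1 to Drap1, 0.121, was 0.0775 with the longest transcript and 0.241 without length, and the ratio of the highest to the lowest member, 8.45, was 17.4 without length. In the order by level, 2 of 10 members kept their rank without length, 7 with the longest transcript and 8 with exonic length not overlapped. These shifts follow from the lengths used. Each of the 3 fits that left out a replicate kept the direction of these ratios, and the count of members varying between libraries ranged from 0 to 4 across them, against 5, with 0 without replicate 2 and 3 without replicate 3. These fits have fewer samples. The count was 5 with DESeq2 size factors and either other count minimum and 4 with total counts. The median level and the count of members above 1 CPM stayed within the spread between replicates under each scaling and without any 1 replicate. Every member had at least 351 counts in each library, so depth did not limit their detection.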
